A study of Homo sapiens with 17 samples.

Results

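The subject here is the response of 786-O cells to 2 CRISPR guides against HIF2a, read gene by gene against the scrambled guide of the same experiment. It covers 9 of the 17 libraries of the series, which were chosen by their treatment labels. They are 3 libraries with guide sg4, 3 with guide sg6 and 3 with the scrambled guide sgscr. The other 8 libraries belong to an experiment with guides against USP37, a deubiquitinase. Its own scrambled control, with 2 libraries numbered 2 and 3, is used below as a second reference level.

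786-O is an established line from a human clear cell renal carcinoma, grown in DMEM with fetal bovine serum. The guides were delivered by lentivirus from pLenti CRISPR-V2 puro, which carries Cas9 and a puromycin marker, and the virus was packaged in 293T cells. Infected cells were selected with antibiotic, so each library comes from an infected population, and the labels name no clone. Control cells went through the same infection with a scrambled guide. The sources used here do not give the time between infection and RNA extraction, the guide sequences or the HIF2a protein level. Polyadenylated RNA was sequenced. The labels speak of triplicates but not of separate cultures. The p-values therefore reflect only the spread among libraries, estimated within the 6 groups of all 17 libraries of the series. That spread may be technical.

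HIF2a, encoded by EPAS1, is the alpha subunit of a transcription factor that pairs with ARNT and binds short hypoxia response elements near its target genes. In cells with oxygen, prolyl hydroxylases mark the alpha subunits and VHL, part of a ubiquitin ligase, sends them for destruction. 786-O cells lack functional VHL, so HIF2a stays active there, and dependence of such cells on HIF2a is a well-known feature of clear cell renal carcinoma. HIF1A is the second alpha subunit, ARNT2 a paralog of ARNT. The values below are of mRNA, and whether these cells make a working HIF1A protein was not measured here.

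The core of a hypoxia response element reads ACGTG or GCGTG, and it was searched on both strands in the RefSeq promoter windows of GRCh38.p14, which run from 250 bases before to 50 bases after a gene's start. The windows below belong to 4 of the genes that fell most with both guides and are shown because each holds at least 1 such match, in capitals. A match on the other strand reads CACGT or CACGC. The CPE window lies at chr4:165378758-165379057 (plus strand, 3 matches), the FLG window at chr1:152325190-152325489 (minus strand, 1 match), the PLXDC2 window at chr10:19816182-19816481 (plus strand, 2 matches) and the MACROD2 window at chr20:13995266-13995565 (plus strand, 2 matches).
CPE: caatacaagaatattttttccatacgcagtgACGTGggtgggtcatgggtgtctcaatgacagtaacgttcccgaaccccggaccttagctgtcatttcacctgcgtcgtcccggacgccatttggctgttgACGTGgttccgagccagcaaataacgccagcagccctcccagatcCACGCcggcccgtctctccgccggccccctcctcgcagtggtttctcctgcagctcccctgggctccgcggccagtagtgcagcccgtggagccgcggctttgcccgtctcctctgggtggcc
FLG: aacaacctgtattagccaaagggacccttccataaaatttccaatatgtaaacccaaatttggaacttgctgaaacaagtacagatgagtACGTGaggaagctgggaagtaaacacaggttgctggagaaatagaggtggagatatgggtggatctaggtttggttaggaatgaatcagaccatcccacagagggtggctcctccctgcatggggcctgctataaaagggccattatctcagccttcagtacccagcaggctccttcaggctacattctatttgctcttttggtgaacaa
PLXDC2: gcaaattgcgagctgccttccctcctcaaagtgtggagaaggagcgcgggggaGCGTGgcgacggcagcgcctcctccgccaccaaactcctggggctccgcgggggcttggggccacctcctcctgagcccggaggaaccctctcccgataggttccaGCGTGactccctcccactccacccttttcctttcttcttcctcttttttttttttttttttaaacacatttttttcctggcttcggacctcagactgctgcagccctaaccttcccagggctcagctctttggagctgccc
MACROD2: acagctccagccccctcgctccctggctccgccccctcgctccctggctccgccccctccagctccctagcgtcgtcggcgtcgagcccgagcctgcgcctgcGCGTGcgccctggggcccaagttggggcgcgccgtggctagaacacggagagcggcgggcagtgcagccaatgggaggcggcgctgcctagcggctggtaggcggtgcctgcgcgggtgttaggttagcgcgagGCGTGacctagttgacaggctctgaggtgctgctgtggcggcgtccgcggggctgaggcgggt

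Such matches were common everywhere. They occurred in 48.4% of the 35116 windows of the table and in 63.7% of the 10155 windows of genes tested here. Genes that fell with both guides had a match in 61.0% of 747 windows, and genes that rose with both had one in 56.5% of 874. Of the 15 largest falls described below, 10 had a window and 5 of these held a match. The fifth was MAP7D2, whose window held 18. Of the 15 largest rises, 10 had a window and 4 held a match, in TSPAN15, PIGR, MXRA5 and HAS3. A match is a string of letters in a window and not a measured binding site.

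The authors deposited variance-stabilised values, which lie on a log2-like scale and had been corrected for batch, for 27315 genes. The scale has a floor at 5.143, where differences are compressed, and depth per library is unknown. Libraries of 1 group differed at the median gene by 0.0986 to 0.239 log2 units. Libraries 2 and 3 of sg6 differed from the mean of the other libraries of their group by 0.187 at the median gene and control library 2 by 0.142, against 0.0896 to 0.12 for the other 6. These 3 are called below the libraries that stood apart, and counts are given without them where that matters. Leaving them out keeps library 1 as the only sg6 library and libraries 1 and 3 of the control. Counts without them therefore cannot tell an effect of these 3 from the loss of libraries. All 10 renal carcinoma line markers passed the filter on low values, and their mean level was 12.142 to 12.301 in the control libraries and 12.279 to 12.368 with the guides. Of 10 markers of 293T cells, the packaging line, 7 lay within 1 log2 unit of the floor in all 9 libraries, as did 7 of 10 leukocyte and 8 of 9 endothelial markers. One 293T marker, NEFL, read 11.7 to 11.9 in the control and 10.9 to 11.3 with the guides, but the mean over the 10 was 6.305 to 6.381 in the control and 6.252 to 6.382 with the guides. Of 9 fibroblast markers 2 passed the filter and 4 were at the floor, and the mean over the 9 was 6.083 to 6.219 in the control and 5.666 to 5.912 with the guides, among which LUM fell. The part of these markers in the results was not tested.

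EPAS1 mRNA itself was lower with both guides. Its deposited log2 values were 11.96, 12.01 and 11.76 in control libraries 1 to 3, 9.70, 9.49 and 9.43 with sg4, and 10.44, 10.11 and 10.48 with sg6. The 3 groups did not overlap, and both USP37 control libraries (12.17 and 12.11) lay above every library with a HIF2a guide. HIF1A read 10.99, 10.66 and 11.05 in the control, 12.03, 12.08 and 12.03 with sg4, and 11.57, 11.76 and 11.37 with sg6. The difference from the HIF2a control was 0.90 (SE 0.09, limma adjusted p = 1.2e-07), but the USP37 control libraries stood at 11.62 and 11.80, within the range of the guides. Against that control the HIF1A difference was 0.10 (adjusted p = 0.464). ARNT2 read 7.25, 7.58 and 7.38 in the control, 8.14, 8.47 and 8.35 with sg4, and 8.56, 8.77 and 8.95 with sg6, while the USP37 control libraries were lower still (6.22 and 5.89). ARNT2 was higher with the guides than in the HIF2a control, by 1.14 (SE 0.13, adjusted p = 1.02e-06) and than in the USP37 control, by 2.48 (adjusted p = 7.48e-11). Of the 17 tested genes of the HIF pathway machinery, 2 rose with both guides (HIF1A and ARNT2) and 2 fell (EPAS1 and USP37). The USP37 fall of 0.44 was not called without control library 1 (adjusted p = 0.0625), control library 2 (adjusted p = 0.0657) or the 3 libraries that stood apart (adjusted p = 0.156).

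A gene is said below to rise or fall, or to agree, where limma called it at a Benjamini-Hochberg adjusted p under 0.05 in the mean of both guides, in sg4 alone and in sg6 alone, with 1 direction in all 3. Effects are differences of log2 values, guides minus control, and their median SE was 0.104. Because sg4 and sg6 were set against the same 3 control libraries, agreement between them is not independent evidence. Of 12484 tested genes, 3819 (30.6%) were called in the mean of the guides, 3159 (25.3%) with sg4 and 3624 (29%) with sg6. With both guides, 1128 (9.04%) rose and 934 (7.48%) fell. Most of these changes were small. The median effect was 0.61 among the genes that rose and -0.535 among those that fell. Both guides moved a gene by at least 1 log2 unit in 131 rises and 148 falls, by at least 2 in 9 rises and 32 falls, and by at least 3 in 1 rise and 10 falls. Of the 33 tested genes in the list of known HIF targets, 3 rose and 21 fell. The lists of HIF targets, glycolysis and HIF machinery hold few of the 12484 tested genes, and 1121 rises and 908 falls lay outside them. Without the 3 libraries that stood apart, 618 genes fell with both guides in place of 934, and 861 rose.

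**Figure D1:**
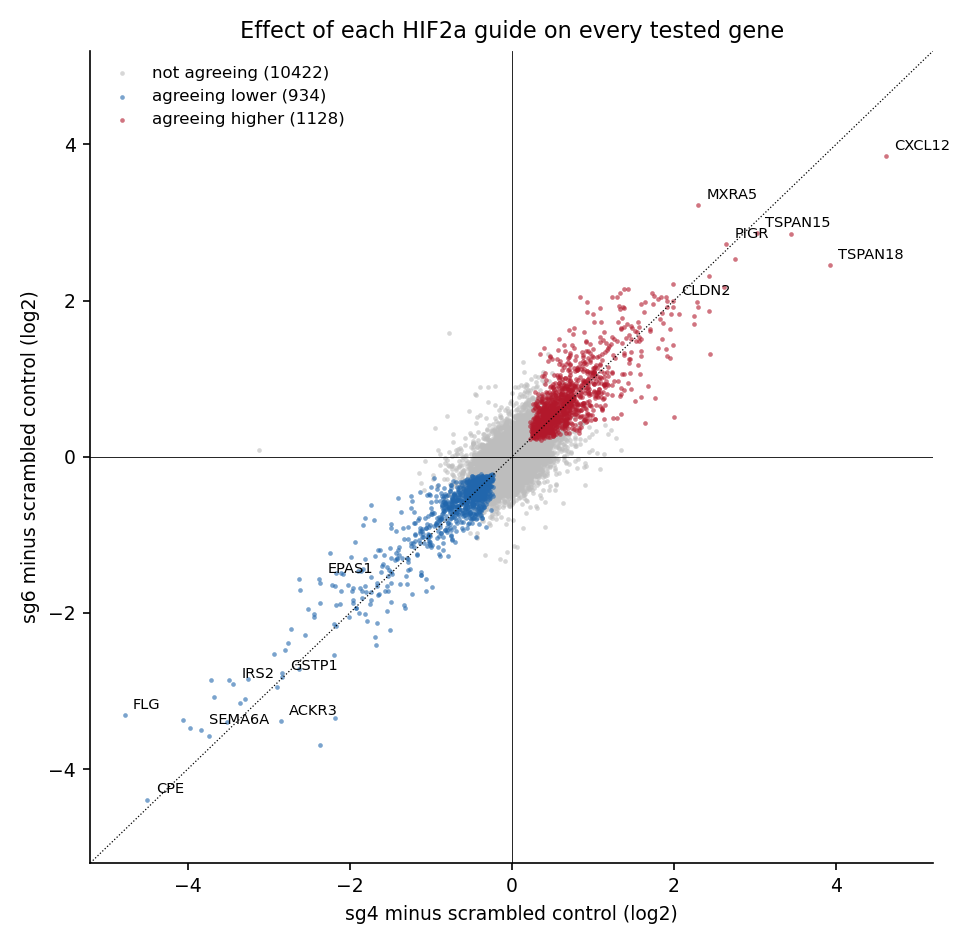
Each point is 1 of the 12484 tested genes. The x axis is the log2 difference of sg4 from the scrambled control and the y axis that of sg6. Red points are the 1128 genes that rose with both guides, blue points the 934 that fell and grey points the rest. The dotted line marks equal effects, and the shared control libraries draw points toward it. CPE lies on the line at about the same fall with each guide, while FLG and TSPAN18 moved further with sg4 and MXRA5 further with sg6.

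The 15 falls with the largest smaller effect over the 2 guides and outside the HIF lists included secreted proteins, membrane proteins and a signalling adaptor. In that order they were CPE, SEMA6A, TMEM47, FLG, MYH13, PLXDC2, MYEOV, IRS2, RARRES2, ACKR3, MACROD2, GSTP1, SMPDL3A, IGFBP1 and MAP7D2. Their effects chose them, so these values describe them and test nothing further. The adjusted p-values ran from 1.93e-17 to 4.94e-10 over the mean and both guides.

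CPE, a carboxypeptidase that trims prohormones, read 11.90, 11.65 and 12.12 in the control, 7.47, 7.40 and 7.32 with sg4, and 7.62, 7.46 and 7.42 with sg6. The difference was -4.44 (SE 0.11). The USP37 control libraries (9.86 and 9.73) lay between, so that the fall against them was -2.34. SEMA6A, a transmembrane semaphorin, went from 10.49, 10.19 and 10.27 to 6.47, 6.57 and 6.41 with sg4 and to 7.15, 6.41 and 6.88 with sg6. Here both USP37 control libraries (10.45 and 10.39) matched the HIF2a control, and no library with a HIF2a guide came within 3 log2 units of any control library. The fall was -3.67 (SE 0.15) against the HIF2a control and -3.77 against the USP37 control.

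PLXDC2, a plexin domain membrane protein, read 9.55, 9.47 and 9.19 in the control, 6.09, 6.02 and 6.21 with sg4, and 6.53, 6.21 and 6.17 with sg6. IRS2, an adaptor of the insulin and IGF receptors, read 12.47, 12.63 and 12.35 in the control, 9.37, 8.80 and 8.97 with sg4, and 9.88, 9.13 and 9.72 with sg6. MYEOV, a gene named for its overexpression in myeloma, read 9.14, 8.97 and 8.92 in the control, 5.59, 5.08 and 5.34 with sg4, and 5.99, 6.07 and 5.72 with sg6. These 3 genes gave nearly the same fall with either control. PLXDC2 was at -3.20 and -3.00, IRS2 at -3.17 and -3.05, and MYEOV at -3.38 and -3.45, each against the HIF2a and then the USP37 control. The sg4 values of MYEOV are at the floor of the scale, so its difference is a compressed one. TMEM47, RARRES2, MACROD2, SMPDL3A and MAP7D2 likewise had scrambled controls that were not called as different. MYH13 was near the floor with both guides, so its difference is compressed as well. It read 8.51, 8.75 and 8.23 in the control, 5.33, 4.95 and 5.15 with sg4, and 5.33, 5.19 and 5.52 with sg6. Its USP37 control libraries (7.36 and 7.37) lay between the HIF2a control and the guides.

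GSTP1, a glutathione transferase, read 10.84, 10.86 and 10.87 in the control, 8.14, 8.07 and 7.86 with sg4, and 8.01, 8.25 and 7.86 with sg6, a difference of -2.83 (SE 0.11). ACKR3, an atypical receptor that binds and clears CXCL12, read 8.63, 8.44 and 8.96 in the control, 5.66, 5.88 and 5.95 with sg4, and 5.54, 5.15 and 5.19 with sg6. Its sg6 values are near the floor of the scale, so its difference is compressed. IGFBP1, a binding protein of insulin-like growth factors, read 8.95, 8.40 and 8.60 in the control, 6.10, 6.04 and 5.94 with sg4, and 5.81, 5.97 and 6.0 with sg6. In these 3 genes every library with a HIF2a guide lay below all 5 scrambled control libraries. The controls differed in the direction of the effect, by -0.44, -1.42 and -0.75 in that order.

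FLG, which encodes the skin barrier protein filaggrin, was the exception among the 15. It read 11.98, 12.20 and 12.03 in the HIF2a control, 7.11, 7.26 and 7.50 with sg4, and 8.73, 8.33 and 9.22 with sg6. The USP37 control libraries read 9.10 and 9.19, inside the sg6 range. Its difference was -4.05 (SE 0.16) against the HIF2a control and -1.12 against the USP37 control.

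The 15 rises, by the same measure, were CXCL12, TSPAN15, IGF2, PIGR, IL18, TSPAN18, L1CAM, MXRA5, FCAMR, TUBB4A, CLDN2, HAS3, INS-IGF2, CSGALNACT1 and MAL2. They include secreted ligands, cell surface proteins and enzymes of glycan synthesis. INS-IGF2 is a readthrough gene that overlaps IGF2, so reads of these 2 may be shared and they do not count as separate results. Over the mean and both guides the adjusted p-values ran from 1.21e-14 to 5.97e-08.

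CXCL12, the chemokine that binds CXCR4 and ACKR3, read 7.01, 6.95 and 7.39 in the control, 11.49, 11.91 and 11.81 with sg4, and 10.68, 11.03 and 11.19 with sg6. The USP37 control libraries were lower still (6.26 and 6.09). Its difference was 4.23 (SE 0.15) against the HIF2a control and 5.18 against the USP37 control. The ligand thus rose while the mRNA of ACKR3 fell, in every library with a HIF2a guide.

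L1CAM, a neural cell adhesion molecule, read 6.80, 7.27 and 7.26 in the control, 9.37, 9.65 and 9.62 with sg4, and 9.39, 9.40 and 9.48 with sg6. CLDN2, a pore-forming claudin of the proximal tubule, read 9.82, 9.76 and 9.93 in the control, 11.80, 11.79 and 11.89 with sg4, and 11.79, 11.93 and 11.77 with sg6. For both genes the USP37 control (7.48 and 7.16 for L1CAM, 10.23 and 9.88 for CLDN2) stood near the HIF2a control. The rises were 2.37 and 2.16 for L1CAM and 1.99 and 1.77 for CLDN2, against the HIF2a and then the USP37 control. CSGALNACT1, an enzyme that starts chondroitin sulfate chains, was also a gene whose controls were not called as different.

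For 11 of the 15 rises the USP37 control was called higher than the HIF2a control. Choosing genes by their difference from the HIF2a control favours that direction. TSPAN15, a tetraspanin partner of the protease ADAM10, read 7.38, 7.06 and 7.44 in the HIF2a control, 8.95 and 8.60 in the USP37 control, 10.17, 10.37 and 10.40 with sg4, and 10.17, 10.21 and 10.10 with sg6. IGF2, an insulin-like growth factor, read 6.91, 7.43 and 7.05 in the HIF2a control, 8.79 and 8.85 in the USP37 control, 10.46, 10.60 and 10.65 with sg4, and 9.88, 9.92 and 10.15 with sg6. IL18, an inflammatory cytokine, read 6.40, 6.46 and 6.41 in the HIF2a control, 7.62 and 7.67 in the USP37 control, 9.15, 9.31 and 9.09 with sg4, and 8.85, 9.15 and 8.86 with sg6. In each of these the guides exceeded all 5 control libraries, with differences of 2.95, 3.15 and 2.65 against the HIF2a control and of 1.46, 1.46 and 1.42 against the USP37 control. FCAMR, an Fc receptor for IgA and IgM, differed. It read 9.52, 9.36 and 9.24 in the HIF2a control and 11.75 and 11.73 in the USP37 control, against 11.94, 11.96 and 12.05 with sg4 and 11.45, 11.54 and 11.66 with sg6. Its difference of 2.40 (SE 0.13) from the HIF2a control was 0.03 from the USP37 control (adjusted p = 0.869).

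**Figure D2:**
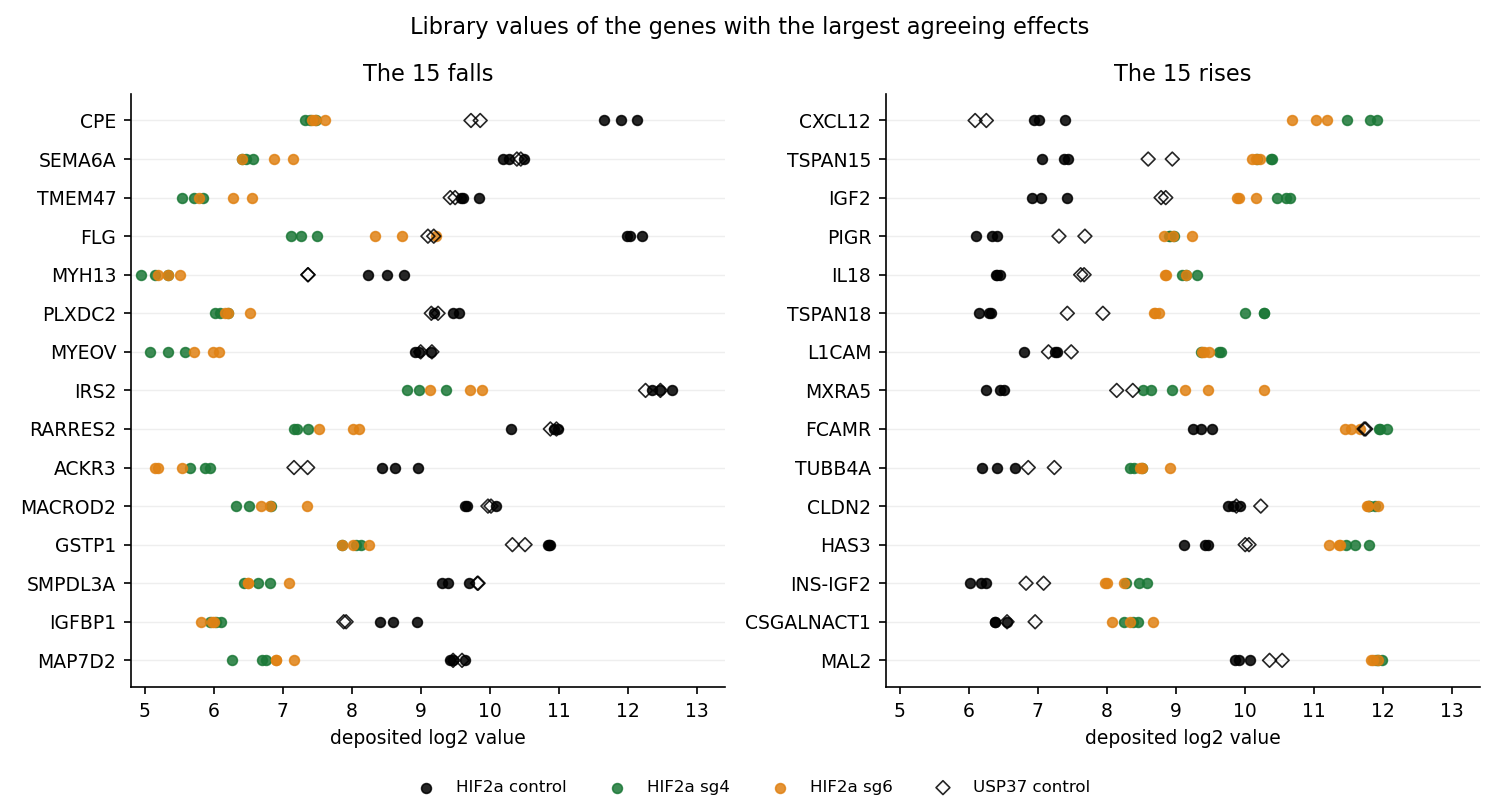
Deposited log2 values (x axis) of the 15 largest falls and the 15 largest rises, 1 point per library. Filled circles are the 3 control libraries (black), 3 sg4 libraries (green) and 3 sg6 libraries (orange) of the HIF2a experiment, and open diamonds the 2 libraries of the USP37 control. The guides are clear of all 5 control libraries in 14 of the falls (all but FLG) and 14 of the rises (all but FCAMR).

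The second control was then applied to all 2062 agreeing genes. The scrambled controls of the 2 experiments differed at 5051 genes (40.5%), and experiment and scrambled guide cannot be told apart in that difference. Of the 1128 rises, 406 had a USP37 control that was called higher than the HIF2a control, the direction of the effect, and 173 one that was lower. Of the 934 falls, 226 had controls that differed in the direction of the effect and 176 in the opposite one. The HIF2a control libraries enter both differences, so choosing genes by their effect favours the direction of the effect. Measured against the USP37 control, 635 of the rises and 642 of the falls were called again in the mean and with each guide in the same direction. The same guide libraries enter both measurements, so these calls are not independent. By contrast, 72 of the rises and 36 of the falls were called in the opposite direction in the mean. All 6 guide libraries lay above all 5 control libraries in 722 rises (5.78% of tested genes) and below them in 677 falls (5.42%).

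**Figure D3:**
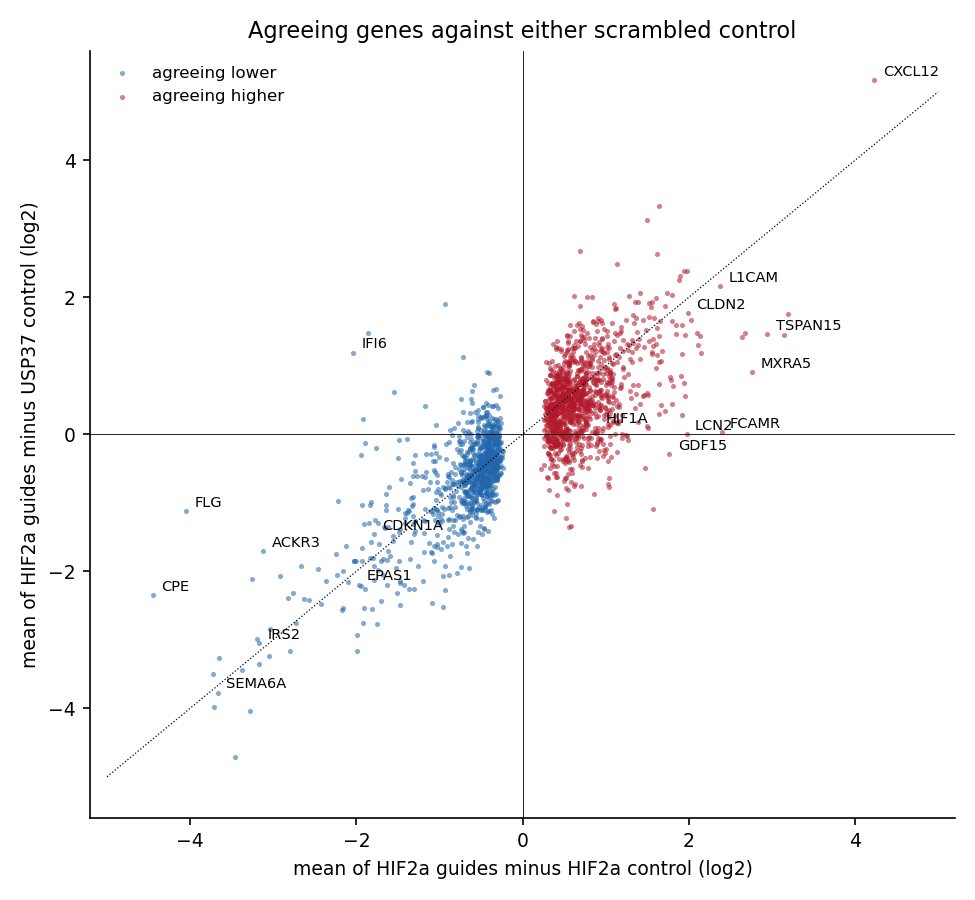
Each point is a gene that rose (red) or fell (blue) with both guides. The x axis is the mean of the HIF2a guides minus the HIF2a control and the y axis the same guides minus the USP37 control, both in log2 units. The guide libraries are common to both axes, and points on the dotted line have equal differences. SEMA6A, IRS2, L1CAM and CLDN2 lie near the line. FCAMR, LCN2, GDF15 and HIF1A lie near 0 on the y axis, and IFI6 lies on the other side of it.

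In the USP37 experiment, which has its own control, 10 of the 15 falls were also lower with the USP37 guides, where 21.9% of all tested genes were lower, and FLG was higher (0.78). SEMA6A was at -0.97, PLXDC2 at -0.96, MACROD2 at -1.23 and SMPDL3A at -1.32. TMEM47 (-0.37, adjusted p = 0.0666), MYEOV (-0.05), ACKR3 (0.28) and GSTP1 (0.19) were not called there. Among the rises, both directions occurred. With the USP37 guides 4 of the 15 were higher and 6 lower, against 22.4% of all tested genes that were higher, and among the lower ones were PIGR (-1.60), CLDN2 (-1.55) and FCAMR (-1.86). CXCL12 was at -0.21 (adjusted p = 0.356).

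Functional gene lists are given by how many tested members rose or fell with both guides, beside the shares of all tested genes, 9.04% and 7.48%, and by the median effect, which was -0.0045 over all tested genes. A member is called clear of both controls where all 6 guide libraries lay beyond all 5 control libraries. Over all tested genes, 722 of the 1128 rises and 677 of the 934 falls were clear in this way. Counts of clear members are to be read beside these numbers. Against the USP37 control 2574 of the 12484 tested genes rose and 2498 fell, and list counts with that control stand beside these larger numbers. The lists were written with earlier results of the table known, so the counts describe and do not test them.

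p53 is a transcription factor whose targets include cell cycle inhibitors, DNA repair genes and its own inhibitor. Of 26 tested p53 targets, 16 fell and 0 rose, with a median of -0.52. In 12 of the 16 the guides lay below all 5 control libraries, a share near that over all falls (677 of 934). EDA2R, a TNF receptor family member, read 8.05, 7.87 and 7.85 in the control, 5.61, 5.43 and 5.41 with sg4, and 5.84, 5.87 and 5.91 with sg6. CDKN1A, the cell cycle inhibitor p21, read 10.94, 10.94 and 10.93 in the control, 9.21, 9.26 and 9.13 with sg4, and 9.08, 9.03 and 9.19 with sg6. MDM2, the ubiquitin ligase that restrains p53, read 10.01, 10.25 and 9.98 in the control, 9.03, 9.05 and 8.98 with sg4, and 9.35, 8.88 and 9.25 with sg6. None of these overlapped the control, and against the USP37 control EDA2R was at -1.75, CDKN1A at -1.46 and MDM2 at -0.86. The count of falls was 13 to 15 when any 1 library was left out, 13 without the 3 libraries that stood apart and 13 against the USP37 control. With the USP37 guides CDKN1A was at 0.10 (adjusted p = 0.352) and MDM2 at 0.08 (adjusted p = 0.563), neither of them called.

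Of 36 tested replication and mitosis genes, 3 fell (RRM2 -0.68, E2F1 -0.47 and MCM2 -0.37) and 0 rose, with a median of -0.10, a share of falls near that of all tested genes. The number was 1 without control library 3 or without the 3 libraries that stood apart and 14 against the USP37 control, and 1 of the 3 was clear of both controls. A list of cyclins, kinases and their inhibitors also holds RB, E2F, MYC and MAX-related genes. Of its 19 tested members 5 fell (CDKN2C -0.56, RB1 -0.44, CDK6 -0.39, CDK4 -0.35 and RBL1 -0.32) and 1 rose (CDKN1C 0.88). That count of 5 was 2 to 4 with any 1 library left out and 2 with the replicate number in the fit, and 2 of the 5 falls and 0 of 1 rise were clear of both controls. E2F1 (-0.08, adjusted p = 0.565) and CDKN2C (-0.14, adjusted p = 0.283) were not called against the USP37 control. Of 61 ribosomal protein genes 2 fell, RPL24 (-0.36) and RPL15 (-0.34), and 0 to 7 fell with any 1 library left out.

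Of 28 tested integrins and adhesion molecules 14 rose and 6 fell, with a median of 0.50, and the guides were clear of all 5 control libraries in 12 rises and 6 falls. L1CAM and NRCAM (1.39, SE 0.15) rose. ITGA4, the integrin subunit that binds VCAM1, read 8.82, 8.68 and 8.37 in the control, 7.12, 6.74 and 7.03 with sg4, and 6.75, 6.46 and 6.29 with sg6. ITGB8, the beta subunit that activates latent TGF-beta, read 12.71, 12.89 and 12.54 in the control, 10.60, 10.68 and 10.78 with sg4, and 11.16, 10.63 and 11.41 with sg6. CADM1 fell by 1.33. Members of the family thus moved in both directions, and the count of rises was 11 to 14 with any 1 library left out.

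Of 30 tested epithelial and mesenchymal markers 12 rose and 5 fell, with a median of 0.06, and 9 of the rises and 4 of the falls were clear of both controls. CLDN2 and KRT19 (1.65, SE 0.09) rose. DSP, the desmosomal plaque protein, read 9.09, 9.12 and 8.85 in the control, 7.06, 6.77 and 6.67 with sg4, and 5.82, 5.46 and 5.71 with sg6. CLDN4, a barrier-forming claudin, read 8.61, 8.41 and 8.34 in the control, 6.54, 6.32 and 6.62 with sg4, and 6.54, 6.53 and 6.67 with sg6. The other falls were FLG and the transcription factors ZEB2 (-0.64) and SNAI1 (-0.54). Thus 2 claudins moved in opposite directions, each clear of all 5 control libraries, while KRT19 was at 0.30 against the USP37 control (adjusted p = 0.0202). Of 20 tested tetraspanins, which organise membrane microdomains, 8 rose and 2 fell, with a median of 0.37, and 5 of the rises and 2 of the falls were clear of both controls. TSPAN15, TSPAN18, TSPAN5 (1.06) and TSPAN14 (0.64) rose, and TSPAN2 (-1.30) and TSPAN12 (-0.77) fell.

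Complement and acute phase genes, products of innate immunity that renal epithelium can also make, had 10 rises and 4 falls among 21 tested, with a median of 0.53. The median was 0.18 against the USP37 control, and 7 of the 10 rises and 4 of the 4 falls were clear of both controls. C3, the central complement component, read 13.27, 13.35 and 13.27 in the control, 15.28, 15.37 and 15.43 with sg4, and 15.04, 14.93 and 15.39 with sg6. The USP37 control libraries (14.53 and 14.46) lay between. SAA2, a serum amyloid protein, read 10.04, 9.30 and 10.08 in the control, 11.51, 11.88 and 11.51 with sg4, and 11.49, 11.72 and 11.51 with sg6, and the USP37 control (9.99 and 9.91) matched the HIF2a control. CFI, the protease that inactivates complement C3b, read 9.73, 9.29 and 9.50 in the control, 7.06, 6.95 and 6.69 with sg4, and 7.92, 7.44 and 8.05 with sg6. CP (-1.52) and CD46 (-0.50), a cofactor of CFI, fell as well. CFI and its cofactor CD46 thus moved in the opposite direction to C3 at the level of mRNA. LCN2, an iron-siderophore binding protein, rose by 1.97 (SE 0.15) against the HIF2a control, but its USP37 control libraries (9.59 and 9.56) lay inside the range of the guides.

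Among 36 tested chemokines, cytokines and their receptors, 9 rose and 2 fell, with a median of 0.12, and 5 of the rises and 2 of the falls were clear of both controls. CXCL12, IL18, CCL28 (1.02) and the interferon gamma receptor subunit IFNGR1 (0.96) rose, and ACKR3 and TNFSF10 (-0.60) fell. CCL28 was not called against the USP37 control (0.11, adjusted p = 0.345). CXCL8 was called in opposite directions by the guides, at 0.36 with sg4 and -0.53 with sg6.

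The interferon response genes gave different counts with the 2 controls. Of 35 tested members 15 fell and 1 rose, with a median of -0.36. IFI6 read 11.28, 11.12 and 11.71 in the HIF2a control, 9.33, 9.91 and 9.84 with sg4, and 8.77, 9.25 and 8.89 with sg6. In the USP37 control it read 8.28 and 8.00, below every library with a HIF2a guide. RSAD2 (-1.39), ISG15 (-0.82), OAS3 (-0.72) and TRIM22 (-0.67) fell against the HIF2a control and were at -0.06, 0.09, 0.33 and -0.04 against the USP37 control. With that control 8 members fell and 5 rose, and the median was 0.02. Over all 12484 tested genes 2498 fell with the USP37 control, so the falls of the list were near that share. In 8 of the 15 falls the guides lay below all 5 control libraries. Of 19 antigen presentation genes 3 rose, among them HLA-E (0.45) and TAP1 (0.40), and 2 of the 3 were clear of both controls. HLA-E was not called against the USP37 control (0.12, adjusted p = 0.198), and 1 of the list rose without sg6 library 2.

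Growth factor ligands had 10 rises and 5 falls among 38 tested, with a median of 0.18. Besides IGF2, GDF15 rose (1.77, SE 0.14), but its USP37 control libraries read 11.00 and 10.93 and the difference from them was -0.29 (adjusted p = 0.143). ARTN, a ligand of the GDNF family, read 8.28, 8.21 and 8.31 in the control, 6.44, 6.78 and 6.60 with sg4, and 6.79, 6.44 and 6.72 with sg6. PDGFB, a platelet-derived growth factor chain, read 9.64, 9.45 and 9.56 in the control, 8.45, 8.37 and 8.64 with sg4, and 8.00, 8.24 and 7.73 with sg6. The other falls were the heparin-binding factor MDK (-1.35), the Notch ligand JAG1 (-0.79) and TGFB1 (-0.75). Against the USP37 control 10 ligands fell and 15 rose, and 7 of the 10 rises and 4 of the 5 falls were clear of both controls.

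Among 21 tested receptor tyrosine kinases 6 rose and 3 fell, with a median of 0.27, and these 9 genes were clear of both controls. FGFR1 read 10.59, 10.72 and 10.77 in the control, 11.25, 11.42 and 11.52 with sg4, and 11.60, 11.55 and 11.71 with sg6. FGFR2 (1.01) and PTK7 (0.69) also rose, while ROR2, a WNT5A receptor (-1.41), FGFR3 (-0.71) and RYK (-0.34) fell. The fibroblast growth factor receptors thus did not move as a family. The rises numbered 12 against the USP37 control and 4 without the 3 libraries that stood apart.

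Matrix and matrix-remodelling genes had 14 rises and 5 falls among 45 tested, with a median of 0.17. MMP15, a membrane-bound metalloproteinase, read 8.82, 9.29 and 9.14 in the control, 10.34, 10.72 and 10.88 with sg4, and 10.63, 10.82 and 10.78 with sg6. MXRA5 and the metalloproteinase MMP7 (1.81, SE 0.11) rose too. TGFBI, an abundant TGF-beta-induced matrix protein, read 16.26, 16.27 and 16.36 in the control, 14.85, 15.01 and 15.05 with sg4, and 14.40, 14.49 and 14.30 with sg6. LUM, a small proteoglycan, read 7.55, 7.41 and 7.38 in the control, 5.54, 5.55 and 5.56 with sg4, and 6.03, 5.98 and 5.94 with sg6. The other falls were the collagen chains COL4A5 (-0.96), COL8A1 (-0.90) and COL12A1 (-0.72). Against the USP37 control 22 members rose, and 10 of the 14 rises and 4 of the 5 falls were clear of both controls.

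Axon guidance molecules, used in tumours and vessels as contact and migration cues, had 10 rises and 4 falls among 39 tested, with a median of 0.10. SEMA6B (1.21), NTN4 (1.01), DPYSL2 (0.94) and NTN1 (0.83) rose. SEMA6A, SEMA4B (-0.88), SLIT2 (-0.71) and PLXNA1 (-0.44) fell. The paralogs SEMA6A and SEMA6B therefore moved in opposite directions, and over the list 7 of the 10 rises and 2 of the 4 falls were clear of both controls. Of 11 tested genes of peptide hormones and their processing 4 fell, CPE, SCG5 (-0.72), STC1 (-0.65) and FURIN (-0.39), and 1 rose, CPD (0.79). FURIN and CPD were not called against the USP37 control, and 3 of the 4 falls were clear of both controls.

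Renal identity and transport genes had 11 rises and 5 falls among 27 tested, with a median of 0.04, and 4 of the rises and 5 of the falls were clear of both controls. The rises were 7 without sg4 library 2 or sg4 library 3, 4 without the 3 libraries that stood apart and 5 against the USP37 control, while the falls numbered 4 or 5 with any 1 library left out and 12 against the USP37 control. ATP1B1, the beta subunit of the sodium pump, read 12.83, 12.81 and 12.63 in the control, 10.71, 10.53 and 10.53 with sg4, and 10.80, 10.50 and 10.47 with sg6. In the USP37 control it read 13.13 and 13.19. MME, the proximal tubule endopeptidase neprilysin, read 7.93, 7.85 and 7.73 in the control, 6.74, 6.84 and 6.79 with sg4, and 6.93, 6.44 and 6.71 with sg6. HNF4G (-0.88), WT1 (-0.91) and PDZK1 (-0.62) also fell. CRYAB (1.04) and CA2 (1.05) rose, though CA2 was at -0.02 against the USP37 control.

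**Figure D4:**
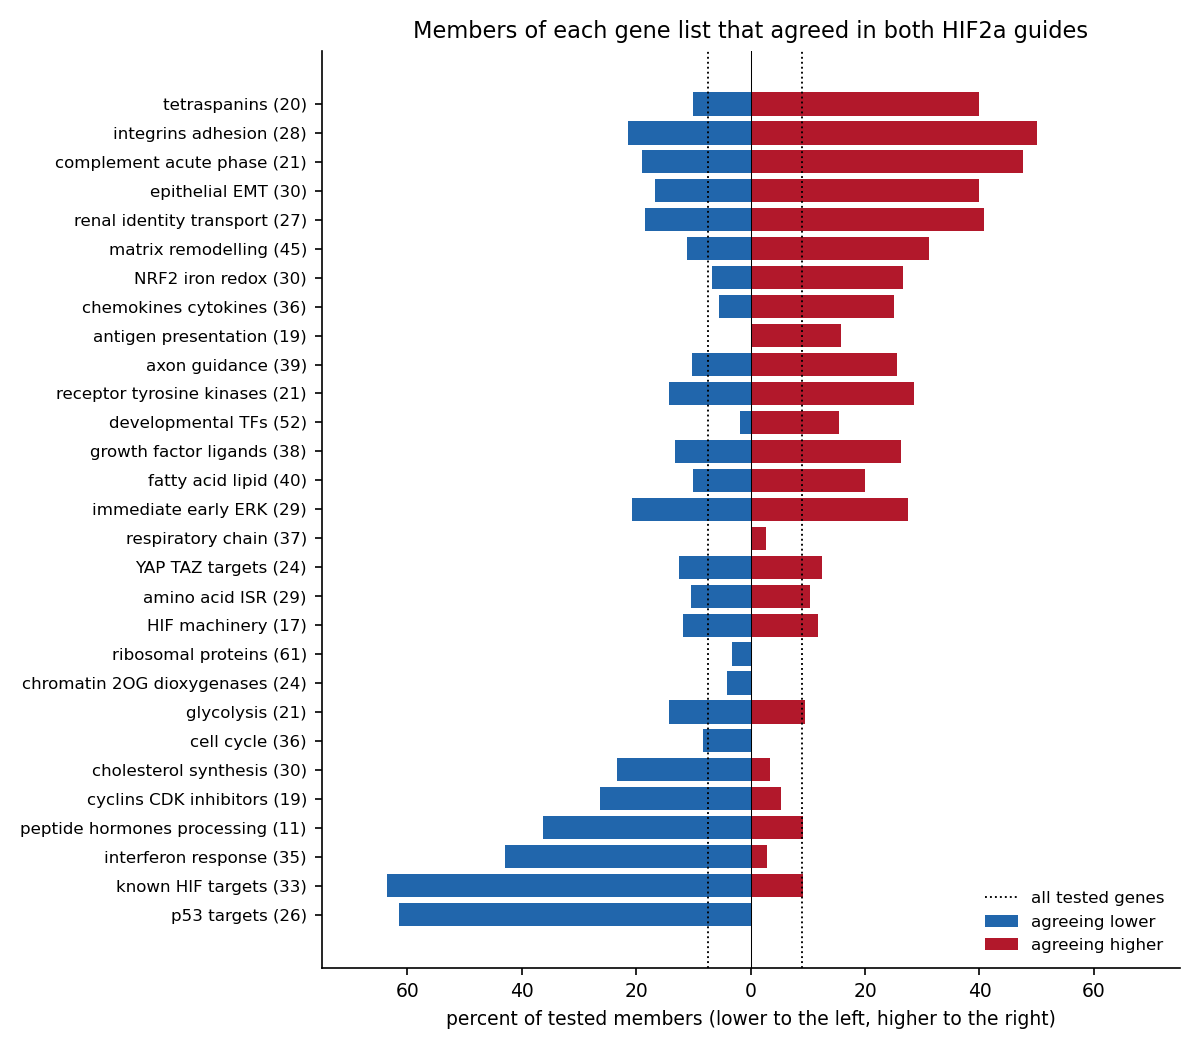
Share of tested members (x axis, percent) of each of 29 gene lists that fell (blue, to the left) or rose (red, to the right) with both HIF2a guides, with the number tested in parentheses. Dotted lines mark the shares among all tested genes, 7.48% lower and 9.04% higher. The bars of p53 targets and known HIF targets reach far to the left of the dotted line, and that of integrins and adhesion molecules far to the right.

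Metabolic groups gave mixed counts. Of 30 tested cholesterol synthesis genes 7 fell and 1 rose, with a median of -0.21, and 4 of the falls were clear of both controls. MSMO1, a sterol demethylase, read 11.49, 11.18 and 11.41 in the control, 9.77, 9.77 and 9.82 with sg4, and 10.28, 10.21 and 9.82 with sg6. STARD4 (-0.67) and IDI1 (-0.71) fell as well. INSIG1, the membrane protein that holds back SREBP processing, read 11.68, 11.67 and 11.54 in the control, 9.72, 9.80 and 9.92 with sg4, and 10.99, 10.80 and 10.73 with sg6. SREBF1, which encodes such a precursor, was called lower with sg4 (-0.41) and higher with sg6 (0.32).

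Of 40 tested fatty acid and lipid genes 8 rose and 4 fell, with a median of 0.11, and 2 of the rises and 3 of the falls were clear of both controls. DGAT2, which completes triglyceride synthesis, read 7.56, 7.46 and 7.76 in the control, 9.06, 9.32 and 9.06 with sg4, and 8.79, 8.85 and 8.68 with sg6. The desaturase SCD5 (1.14) rose, while its relative SCD was called at -0.95 with sg4 and 0.37 with sg6. ACSL4 (1.11), PPARG (0.69) and PPARGC1A (0.90) rose against the HIF2a control and were at -0.0026, -0.45 and -0.06 against the USP37 control. The 4 falls were LPIN1 (-0.63), ELOVL2 (-0.42), ACSL3 (-0.37) and LPCAT1 (-0.34), and 0 of them was called without the 3 libraries that stood apart.

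Of 29 tested amino acid and stress response genes 3 rose and 3 fell, with a median of -0.04, and 3 of the rises and 2 of the falls were clear of both controls. SLC7A5, the light chain of the large neutral amino acid transporter, read 12.93, 13.02 and 12.89 in the control, 10.85, 10.66 and 10.67 with sg4, and 11.25, 10.89 and 11.79 with sg6. TRIB3 (-1.35) and the glycine transporter SLC6A9 (-1.76) fell too. CEBPB (0.66), ATF5 (0.47) and XBP1 (0.42) rose. Without sg6 library 3 the falls numbered 5. SLC6A9 was at -0.20 against the USP37 control (adjusted p = 0.403).

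The list of NRF2 targets, iron and redox genes had 8 rises and 2 falls among 30 tested, with a median of 0.02, and 5 rises without the 3 libraries that stood apart. In this list 3 of the 8 rises and 1 of the 2 falls were clear of both controls. AKR1B10, an aldo-keto reductase, read 9.13, 9.11 and 9.25 in the control, 10.60, 10.30 and 10.29 with sg4, and 11.19, 11.19 and 11.25 with sg6. AKR1C1 (1.91) and AKR1C3 (0.88) rose, and both have close paralogs that could take some of their reads. GSTP1 and GCLM (-0.30) fell. Of 21 glycolysis and HIF1A-preferred targets 2 rose (PFKFB3 1.49 and TPI1 0.38) and 3 fell (P4HA1 -0.64, PFKP -0.46 and ALDOA -0.43). Respiratory chain genes had 1 rise in 37, COX4I1, which was not clear of both controls and not called once chromosome medians were taken out.

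Immediate early and ERK feedback genes had 8 rises and 6 falls among 29 tested, with a median of 0.10, and 5 of the rises and 3 of the falls were clear of both controls. EGR1, an early growth response transcription factor, read 8.18, 8.34 and 8.38 in the control, 6.57, 6.43 and 6.64 with sg4, and 6.22, 6.46 and 6.56 with sg6. DUSP1 fell as well (-1.08), while the ERK phosphatase DUSP5 (0.99), the feedback inhibitor SPRY4 (1.13) and the ETS factor ETV1 (1.17) rose. ETV1 was at 0.19 against the USP37 control (adjusted p = 0.209), and 3 genes fell without control library 3 or sg4 library 2. The list of YAP and TAZ targets, which also holds pathway genes such as WWTR1 (TAZ itself), had 3 rises and 3 falls among 24. F3, tissue factor, which starts coagulation, read 9.0, 8.94 and 9.20 in the control, 7.85, 7.73 and 7.63 with sg4, and 7.14, 7.04 and 7.16 with sg6. NUAK2 (0.74), WWC1 (0.60) and CRIM1 (0.29) rose, and LATS2 (-0.53) and WWTR1 (-0.51) fell.

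Of 52 tested developmental transcription factors 8 rose and 1, PBX3 (-0.70), fell, with a median of 0.12, and 3 of the rises and the fall were clear of both controls. FOXC1 rose by 0.89 (SE 0.12) and was at 0.79 against the USP37 control. SOX13 (0.80), HOXA13 (0.81) and TFAP2A (0.64) rose and were at -0.04, -0.34 and -0.05 against the USP37 control. The count of 8 was 5 without the 3 libraries that stood apart. Of 24 chromatin dioxygenases, enzymes that use oxygen and 2-oxoglutarate, 1 fell, RIOX2 (-0.37), which was not called against the USP37 control (-0.16, adjusted p = 0.142).

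In the list of known HIF targets, 21 of 33 tested members fell and 3 rose, with a median of -1.42. The falls numbered 21 or 22 with any 1 library left out and 26 against the USP37 control. Besides the classical targets, it held GAL3ST1, a sulfotransferase of glycolipids, at -3.45 (SE 0.16) against the HIF2a control and -4.71 against the USP37 control. The 3 rises were LOX (0.70), INHBB (0.65) and BHLHE41 (0.55), and 5 rose without sg6 library 3.

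Against the USP37 control 2574 of 12484 tested genes rose and 2498 fell, where 1128 and 934 did against the HIF2a control. A larger count with the USP37 control is therefore not in itself particular to a list. Several lists gave counts that differed from those above by more than 1.5 times. Falls numbered 14 among replication and mitosis genes, 14 among ribosomal proteins, 12 among developmental transcription factors, 8 among epithelial and mesenchymal markers and 6 among chemokines. Rises numbered 10 in the YAP and TAZ list, 5 among chromatin dioxygenases and 4 each in the immediate early, NRF2 and redox, and cyclin lists. Both directions were larger for the amino acid and stress response list (6 rises and 6 falls), the HIF machinery (4 and 6), glycolysis (5 and 8), the respiratory chain (4 and 5) and antigen presentation (6 and 3).

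Changed genes were not spread evenly over the chromosomes, which were assigned by gene symbol for 12349 of the 12484 tested genes. On chromosome 3, 181 of 695 tested genes fell with both guides (26%) and 18 rose, and the median effect was -0.222. Chromosome 13 had 36 falls in 207 genes (17.4%). Rises made up 16.8% of the 553 tested genes of chromosome 16, 15% of 735 on chromosome 17 and 14% of 698 on chromosome 11. These shares stand against 7.48% lower and 9.04% higher over all tested genes. With each chromosome's median taken out of each library, 726 genes fell with both guides in place of 934, and 1026 rose in place of 1128. Of 87 list counts and medians 11 moved. MCM2, COX4I1, RIOX2, RPL24 and RPL15 were then not called, and VHL was called higher (0.32, adjusted p = 0.00743). The genes with the largest effects, among them CPE, SEMA6A, CXCL12 and CDKN1A, kept their calls.

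**Figure D5:**
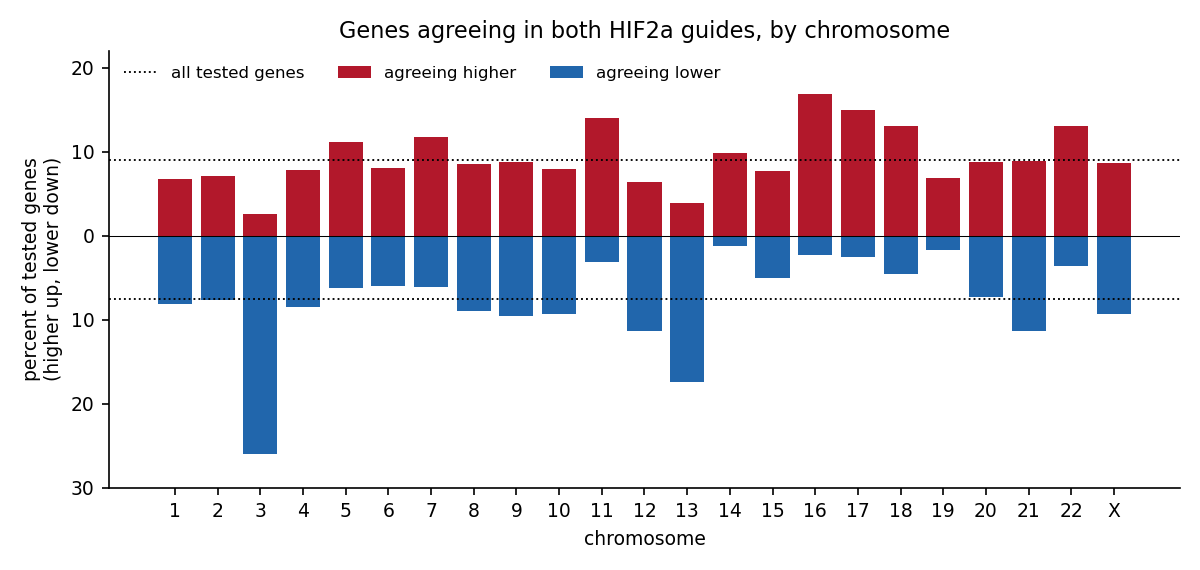
Share of tested genes (y axis, percent) that rose (red, upward) or fell (blue, downward) with both HIF2a guides, for each chromosome (x axis). Dotted lines mark the shares over all tested genes. The bar for falls on chromosome 3 reaches 26%, and chromosomes 11, 16 and 17 have the highest bars for rises.

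The guides themselves differed at 1151 genes (9.22%), and 16 genes were called in opposite directions by them. Among the 15 falls, FLG (1.47), RARRES2 (0.64), MYEOV (0.59) and IRS2 (0.53) were higher with sg6 than with sg4, and ACKR3 was lower (-0.54). The sg6 values of ACKR3 and the sg4 values of MYEOV are near the floor, where differences are compressed. Among the 15 rises, TSPAN18 (-1.48), CXCL12 (-0.77) and IGF2 (-0.58) were lower with sg6 and MXRA5 was higher (0.93). The count of 1151 was 413 without the 3 libraries that stood apart, 500 without sg4 library 2 and 612 without sg4 library 3. EPAS1 mRNA was also higher with sg6 than with sg4, by 0.81. How the amount of EPAS1 mRNA bears on these differences was not tested.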

How the data were processed

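RNA-seq of 9 libraries of 786-O cells (3 each of HIF2a sg4, HIF2a sg6 and sgscr) was taken from a table of 17 libraries. The authors deposited batch-corrected, variance-stabilised values on a log2 scale. Tools in the submitters' processing notes are STAR 2.5.2b, cutadapt, DESeq2 and Salmon, and the build is hg19, without their roles. The batch variable is not given in the sources used here. Over all genes, the means of the libraries numbered 1, 2 and 3 were equal to within 6.4e-14, so a replicate term had already been removed. P-values of a fit without that term tend to be too small. Counts cannot be recovered, so depth per sample is unknown and no counting interval is given.

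Groups follow the treatment labels. The filter kept the 12484 genes whose mean reached 6.143, which is 1 log2 unit over the 1st percentile of the means of all genes. All 6 groups entered 1 limma 3.58.1 fit in R 4.3.3 with a mean-variance trend and no replicate term (11 residual degrees of freedom), tested on simulated data. Adjusted p-values are Benjamini-Hochberg over all tested genes. Named genes are 6 key genes, the 15 falls and 15 rises with the largest smaller guide effect, up to 5 agreeing members per list, members that the guides called in opposite directions, and members where a count of 5 or fewer needs them. Some genes are not reported here. The members, lists and rule were chosen with earlier results of these data known. Promoter windows are RefSeq's for GRCh38.p14, matched by symbol. Alternatives were the replicate term, the 9 libraries alone, other filters, array weights, centring, both or the other control, chromosome medians, and libraries left out. No deposited column of sample values was left out of the fit.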

Additional observations from a re-analysis of the deposited data

Results flagged for a closer look

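These 39 named genes differed between the 2 HIF2a guides by a test of that difference (sg6 minus sg4, limma adjusted p under 0.05 over all tested genes, 3 libraries each). Values are log2 differences, positive where sg6 was higher. Groups of 3 libraries were too small to look for single outlying libraries, and the 3 that stood apart are named for their distance alone.

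EPAS1, the targeted gene, differed by 0.81 and HIF1A by -0.48. Among the largest falls FLG differed by 1.47, RARRES2 by 0.64, MYEOV by 0.59, IRS2 by 0.53 and ACKR3 by -0.54. Among the largest rises MXRA5 differed by 0.93, IGF2 by -0.58, CXCL12 by -0.77 and TSPAN18 by -1.48. NDRG1 (0.85), EGLN3 (0.68) and PFKFB3 (0.28) were higher with sg6, and P4HA1 (-0.29) and P4HA2 (-0.73) were lower.

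Of ligands, receptors and immune genes, CFI (0.91), GDF15 (0.76) and FGFR2 (0.46) were higher with sg6, and PDGFB (-0.50), RSAD2 (-0.66), IFI6 (-0.73) and CXCL8 (-0.89) were lower. The sg6 values of RSAD2, like those of ACKR3, are near the floor of the scale, where differences are compressed. In lipid, stress and redox lists, SCD (1.32), INSIG1 (1.03), TRIB3 (0.96), ME1 (0.93), AKR1B10 (0.81), SREBF1 (0.73), AKR1C3 (0.59) and SLC7A5 (0.58) were all higher with sg6. The remaining genes were NRCAM (0.92), CDKN1C (0.82), MXD4 (0.64), SEMA6B (0.48), TSPAN5 (0.32), TGFBI (-0.57), F3 (-0.62) and DSP (-1.17).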

How the results depend on the processing

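With a replicate block, the 9 counts of called genes stayed within 1.5 times (for example 965 rises and 778 falls with both guides) and 152 of 152 named genes kept their call in the mean of the guides. Of 87 list counts and medians 5 moved, all of them counts of 5 or fewer. Falls went to 1 in the HIF machinery, 2 in the cyclin list and 0 among ribosomal proteins. Rises went to 0 in the cyclin list and in the respiratory chain. RPL24, RPL15, COX4I1 and CDKN1C were therefore not called with both guides there. No label says that numbers 1 to 3 pair libraries. Same-numbered deviations correlated at -0.547 to 0.222, but the replicate term had already been removed, which lowers such correlations. These values therefore cannot show whether the numbers paired libraries. Genes that differed between guides numbered 1151, and 533 in the 9 libraries alone with replicate block, 573 with array weights, 413 without the 3 libraries that stood apart, and 500 to 1593 with any 1 library left out. Array weights gave 5150 calls for sg4 in place of 3159. Without the 3 libraries, sg6 had 2021 calls in place of 3624, and 618 genes fell with both guides in place of 934. In that last setting library 1 was the only one left for sg6, so its counts rest on fewer libraries. The cause was not tested.

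With the mean of both scrambled controls, 3268 genes were higher and 3086 lower, sg4 had 5367 calls and sg6 5677, and 1997 rose and 1846 fell with both guides. With the USP37 control these numbers were 3498, 3390, 6383, 6342, 2574 and 2498. P4HA2 (0.205) and CXCL8 (0.34) reversed with both controls averaged, and so they did with the USP37 control (0.51 and 0.76). IFI6 (1.19), OAS3 (0.33), SREBF1 (0.26) and PPARG (-0.45) also changed sign there and were called. ISG15 (0.086), COX4I1 (-0.00019), LCN2 (-0.00064), ACSL4 (-0.0026), CA2 (-0.018) and SOX13 (-0.036) had the other sign there but were not called. The same held for TFAP2A (-0.048), PPARGC1A (-0.055), CPD (-0.11), AKR1C3 (-0.17), GDF15 (-0.29) and HOXA13 (-0.34). No filter, a stricter filter, centring (which moved the median effect by 0.0132) and the 9 libraries alone left each count over the whole table within 1.5 times and moved 14, 7, 1 and 7 of the 87 list values. Depth is unknown, and differences near the floor of the scale are compressed.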
